A study of Pimephales promelas with 27 samples.

Results

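Transcript levels in fathead minnow (Pimephales promelas) ovary explants were followed at the 100 array probes whose signal was lowest with the androgen DHT (dihydrotestosterone) after 9 h of culture. The 100 probes were taken from 15208 non-control probes by their own values. A probe had to be well above background on all 27 arrays, which left 10155 probes. A mean within-group SD below 0.6 (log2) left 8426. Control means that differed by at most 0.2 between 6 and 9 h and by at most 0.3 between 9 and 12 h left 2102, called eligible here. Of these, the 100 with the lowest mean DHT minus control difference at 9 h were kept. The 9 h difference is therefore a description of the choice and was not tested. DHT arrays at 6 h and 12 h took no part in ranking the probes, although their scatter entered the SD limit. Control means at 6 h and 12 h entered the choice through the limits on their distance from the 9 h control mean. The ranking favours a high 9 h control mean, so these limits can favour high control means, and lower differences, at 6 h and 12 h. A choice without the limits is given below.

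Pieces of ovary were cultured with DHT at 1e-06 M or as controls, and 1 RNA sample was hybridised to each array. There were 5 DHT and 4 control samples at 6 h, 5 DHT and 5 control samples at 9 h, and 4 DHT and 4 control samples at 12 h. All were labelled as female ovary, no age or strain is given in the sources used here, and the labels do not say what the control medium held. The labels do not give the fish behind each explant, so a p-value covers no more than the scatter among these samples, which may be technical. Replicate numbers follow the order of the sample records and do not pair samples.

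Androgens act mainly through the androgen receptor, a nuclear receptor that binds DNA and changes the transcription of its target genes. DHT cannot be converted to an estrogen by aromatase, so in fish studies it is used as an androgen without that conversion. An ovary explant holds oocytes with their granulosa and theca cells, the steroid-producing cells of the follicle, and its RNA is the sum over these cells. In such bulk RNA, fewer cells of a type and less RNA per cell cannot be told apart.

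The probes are given by their array IDs. No column of the files names a gene, and 0 of the 15208 probe names matched any of the 64593 genes of the reference table used here. No role, pathway or sequence is therefore given for any probe, and the tissue label was not checked against marker genes. Levels are log2 processed signals minus log2 of the 75th percentile of the same array, so 0 is the signal at that percentile. A difference is the mean level with DHT minus the mean level in controls of the same time. Signals of different probes do not rank their transcripts, because each probe binds its target with its own efficiency.

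The 27 arrays lay on 7 slides scanned on 3 days. Arrays of 6 h and 9 h shared slides and 1 scan day, while those of 12 h had slides and days of their own, so slide and time cannot be told apart between 12 h and the earlier times. The 75th percentile of the signal ranged from 921 to 5709 between arrays, and the share of probes well above background from 73.9% to 89.9%. Precision is limited by how many arrays each group had.

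At 9 h, the differences of the 100 probes ran from -0.83 to -0.45 with a median of -0.53, a 1.44-fold lower signal with DHT. The median of all eligible probes lay close to 0. The values did not separate the groups. Averaged over the 100 probes, each relative to its own mean over the 27 arrays, the 5 DHT arrays at 9 h stood at -0.33, 0.42, -0.58, -0.83 and -0.58, and the 5 control arrays at 0.13, 0.80, -0.01, 0.31 and -0.38. DHT replicates 3, 4 and 5 lay below every control array, DHT replicate 1 lay among the controls, and DHT replicate 2 lay above all controls but replicate 2. The means were -0.38 ± 0.48 with DHT and 0.17 ± 0.43 in controls (SD, n = 5 each).

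**Figure D1:**
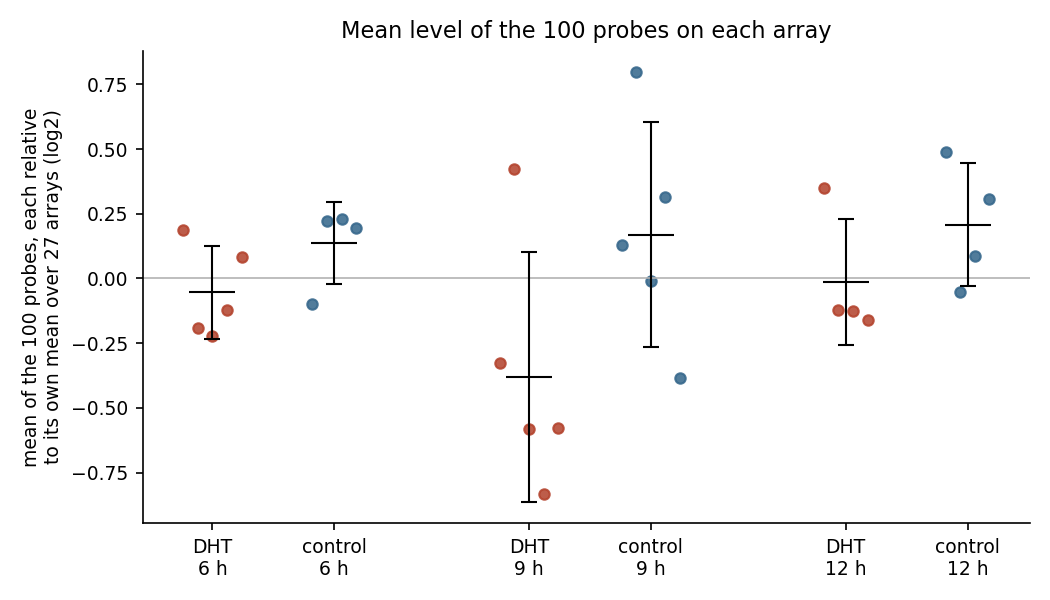
Mean level of the 100 probes on each array, each probe relative to its own mean over 27 arrays (log2, vertical axis), for DHT and control arrays at 6, 9 and 12 h. Points are arrays, bars are group means ± SD. At 9 h the DHT arrays span -0.83 to 0.42 and the control arrays -0.38 to 0.80, and the groups overlap at each time.

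None of the 100 probes had every DHT array below every control array at 9 h, against 0.0219% of the 13714 probes tested. DHT replicate 2 stood above the 9 h control mean at 80 of the 100 probes. DHT replicate 4 was the lowest of the 10 arrays at 46 probes, and control replicate 2 the highest at 67. The size of the choice therefore turned on single arrays. Without control 9 h replicate 2 the median difference at 9 h was -0.39, and without DHT 9 h replicate 2 it was -0.72. Control 9 h replicate 2 had the brightest 75th percentile of the 27 arrays, 5709, with 74.3% of its probes well above background. DHT 9 h replicate 4 stood at 4864 and 85.8%. The part of array brightness in the 9 h differences was not tested.

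The lowest 9 h difference was that of UF_Ppr_AF_110903, at -0.83. Its levels were -1.63, 0.01, -0.94, -3.16 and -2.13 on the DHT arrays, against -0.93, -0.43, -0.39, 0.10 and -2.07 on the control arrays. DHT replicate 4 was far below the other arrays, and the groups overlapped. UF_Ppr_AF_112549 came next at -0.82, with -3.19, -2.03, -3.89, -4.68 and -2.13 with DHT, against -2.36, -1.98, -2.64, -2.84 and -1.99 in controls. DHT replicates 1, 3 and 4 of this probe were below every control array, and the other two lay among the controls.

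UF_Ppr_AF_118576 was 1 of the 10 lowest probes in which 4 DHT arrays lay below every control array. It had -5.69, -4.11, -5.22, -5.56 and -5.73 with DHT, against -4.51, -4.49, -4.22, -4.43 and -4.58 in controls. DHT replicates 1, 3, 4 and 5 lay well below the narrow control range, and DHT replicate 2 lay above it. UF_Ppr_AF_106451, with a 9 h difference of -0.73, showed the same arrangement, with 4 DHT arrays below every control and DHT replicate 2 above every control. The other 6 of the 10 lowest probes were UF_Ppr_AF_116069, UF_Ppr_AF_112838, UF_Ppr_AF_100915, UF_Ppr_AF_101321, UF_Ppr_AF_104965 and UF_Ppr_AF_102677. Their 9 h differences ran from -0.73 to -0.66, and between 1 and 3 of the 5 DHT arrays lay below every control array. UF_Ppr_AF_100915 rested largely on DHT replicate 3, at -5.10, against a next lowest DHT array of -3.87.

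The limit of 100 cut through a continuous distribution. Just inside it, UF_Ppr_AF_108749, UF_Ppr_AF_110593 and UF_Ppr_AF_105400 had 9 h differences of -0.4483, -0.4476 and -0.4475. Just outside it, UF_Ppr_AF_101401, UF_Ppr_AF_103498 and UF_Ppr_AF_105916 had -0.4467, -0.4465 and -0.4461. In all, 23 of the 100 probes were lower than -0.6 at 9 h.

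**Figure D2:**
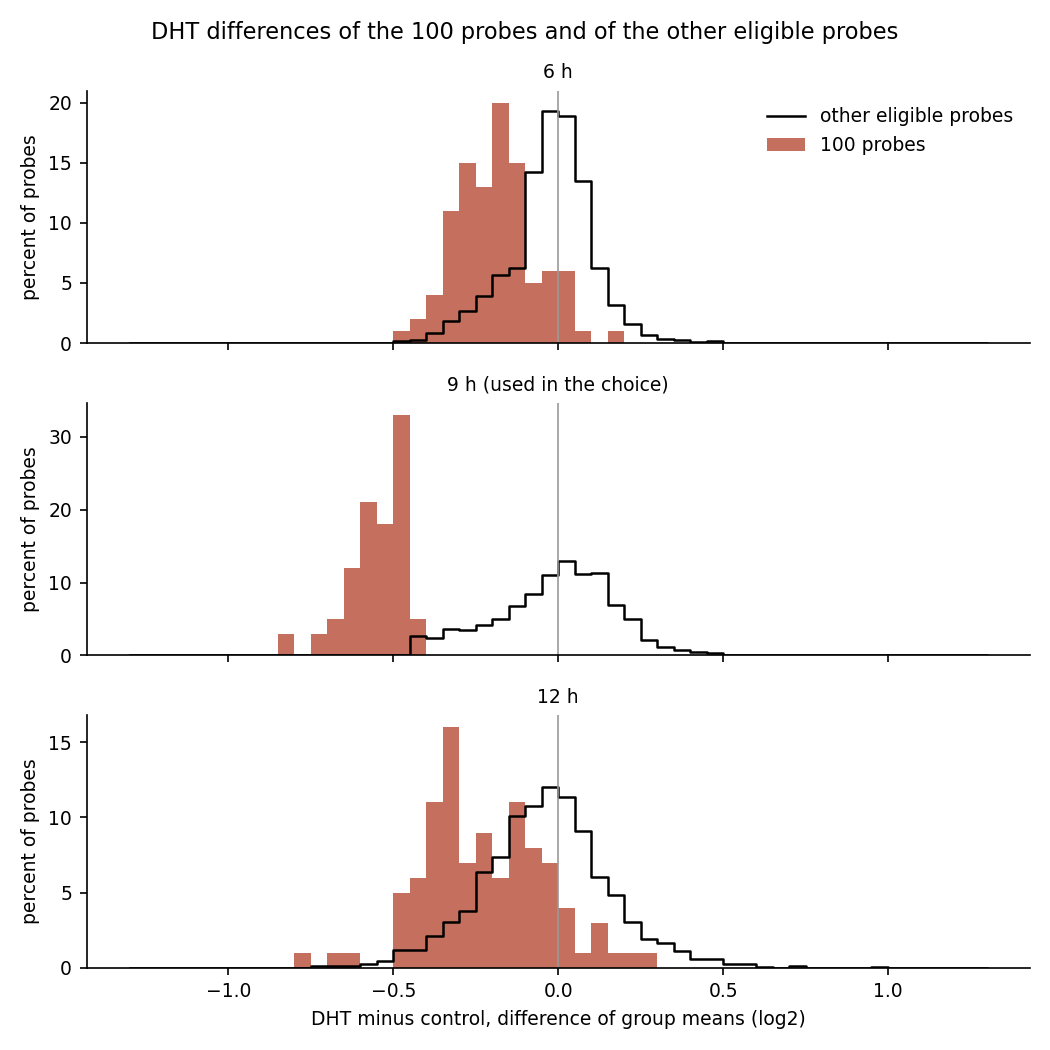
Distribution of the DHT minus control difference of group means (log2, horizontal axis) at 6, 9 and 12 h for the 100 probes (filled bars) and the other 2002 eligible probes (line), as percent of probes in bins of 0.05. The 100 probes lie below -0.44 at 9 h by choice, and spread around medians of -0.19 at 6 h and -0.23 at 12 h.

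At 6 h, the question was whether the same probes were lower with DHT at a time that had not ranked them. Only slide 2 held both agents at 6 h, with 4 DHT arrays and 1 control array. DHT replicate 5 lay on slide 3, control replicate 1 on slide 1, and control replicates 3 and 4 on slide 4. Slide and DHT can therefore be told apart only in part at 6 h. The mean of the 100 probes stood at 0.19, -0.19, -0.22, -0.12 and 0.08 on the DHT arrays, against -0.10, 0.22, 0.23 and 0.20 on the control arrays. DHT replicates 1 and 5 lay above control replicate 1, which lay among the DHT arrays, so the groups overlapped. The DHT arrays averaged -0.05 ± 0.18 (SD, n = 5), and the control arrays 0.14 ± 0.16 (SD, n = 4). Lower means with DHT were found for 92 of the 100 probes, against 53.6% of all tested probes and 55.6% of the other 1959 eligible probes that were tested. Their differences ran from -0.49 to 0.18 with a median of -0.19, 1.14-fold lower, beside -0.01 over all tested probes. The 92 are not 92 separate observations, because the probes vary together between arrays, as described below.

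No probe passed at 6 h. limma called 0 of the 100 probes at an adjusted p under 0.05, against 0% of the 13714 tested, and 0 had an unadjusted p under 0.05, against 0.219% of all tested probes in the lower and 0.211% in the higher direction. The interval of the difference (95%) lay within 2-fold in both directions for 88 of the 100 probes, and for 65.9% of all tested probes. The choice required an SD below 0.6, which narrows such intervals, and the tested probes had no such limit. The 2 shares therefore do not compare like with like, and that of the eligible probes was not counted. Other dim eligible probes were also lower with DHT. Among the 444 with a mean level below -2 the median difference at 6 h was -0.11, and 73.4% were lower.

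The 3 probes with the smallest p at 6 h are given here, none of which passed. UF_Ppr_AF_101709 stood at 2.12, 2.14, 2.30, 2.20 and 1.63 with DHT, against 2.31, 2.83, 2.33 and 2.63 in controls. Every DHT array lay below every control array, by a narrow margin between DHT replicate 3 and control replicate 1. It was the 1 probe of the 100 whose ranges did not overlap at 6 h, against 0.117% of all tested probes. The difference was -0.44 (SE 0.24, limma adjusted p = 1.00). It was also the probe with the highest mean signal of the 100, at 2.26.

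UF_Ppr_AF_114883 had -2.66, -2.59, -2.43, -2.48 and -2.84 with DHT at 6 h, against -2.46, -2.07, -2.30 and -2.07 in controls. The groups overlapped through control replicate 1 alone, and the difference was -0.37 (SE 0.23, limma adjusted p = 1.00). UF_Ppr_AF_104965 had the lowest 6 h difference of the 100 probes, -0.49 (SE 0.32, limma adjusted p = 1.00). Its levels were -2.48, -3.00, -3.22, -3.07 and -2.55 with DHT, against -2.64, -2.07, -2.52 and -2.28 in controls. DHT replicates 2, 3 and 4 lay below every control array.

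At 12 h, the mean of the 100 probes stood at 0.35, -0.12, -0.13 and -0.16 on the DHT arrays, against 0.49, -0.05, 0.09 and 0.31 on the control arrays. DHT replicates 2, 3 and 4 lay below every control array, and DHT replicate 1 lay above 3 of the 4. The means were -0.01 ± 0.24 with DHT and 0.21 ± 0.24 in controls (SD, n = 4 each). DHT replicate 1 and control replicate 1, the highest arrays of their groups, lay on the same slide and had the 2 dimmest 75th percentiles of the 27 arrays, 921 and 1096. The other array of that slide, DHT replicate 2, was also dim, at 1222, and stood at -0.12. The part of array brightness here was not tested.

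Lower means with DHT at 12 h were found for 89 of the 100 probes, against 52.9% of all tested probes and 59% of the other eligible probes. The differences ran from -0.78 to 0.26 with a median of -0.23, 1.17-fold lower, beside -0.02 over all tested probes. The 444 other eligible probes with a mean level below -2 had a median of -0.13, with 67.3% lower. limma called 0 of the 100 probes at an adjusted p under 0.05, against 0% of the 13714 tested. An unadjusted p under 0.05 in the lower direction was found for 1 of the 100 probes, against 1.66% of all tested probes, and in the higher direction for 0, against 1.12%. The median difference was -0.36 with 94 lower without DHT 12 h replicate 1, and -0.16 with 69 lower without control 12 h replicate 1, which lay on the same slide. The interval of the difference lay within 2-fold for 70 of the 100 probes, and for 57.3% of all tested probes, which had no SD limit.

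UF_Ppr_AF_117297 was the 1 probe with an unadjusted p under 0.05 at 12 h. It had -2.05, -2.77, -2.42 and -2.34 with DHT, against -1.76, -1.72, -2.31 and -1.94 in controls. DHT replicates 2, 3 and 4 were below every control array, and DHT replicate 1 was above control replicate 3. The difference was -0.46 (SE 0.22, limma unadjusted p = 0.0459, adjusted p = 1.00).

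UF_Ppr_AF_107449 had -2.09, -2.87, -3.07 and -3.18 with DHT at 12 h, against -1.79, -2.09, -2.37 and -2.47 in controls. Its difference was -0.63 (SE 0.31, limma adjusted p = 1.00), with 3 DHT arrays below every control array. UF_Ppr_AF_112549, the second lowest probe at 9 h, had the lowest 12 h difference of the 100, -0.78 (SE 0.44, limma adjusted p = 1.00). It stood at -3.05, -3.32, -3.39 and -3.36 with DHT, against -2.38, -3.07, -2.24 and -2.29 in controls. Control replicate 2 alone reached down to the DHT arrays.

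Ranges did not overlap at 12 h for 2 of the 100 probes, against 1.59% of all tested probes. They were UF_Ppr_AF_118533 and UF_Ppr_AF_102767, both named after their values were seen. The first ranged from -2.08 to -1.84 with DHT, against -1.78 to -1.58 in controls, and the second from -1.99 to -1.77 with DHT, against -1.61 to -1.40 in controls. Their differences of -0.28 (SE 0.27) and -0.36 (SE 0.30) had a limma adjusted p of 1.00 each.

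**Figure D3:**
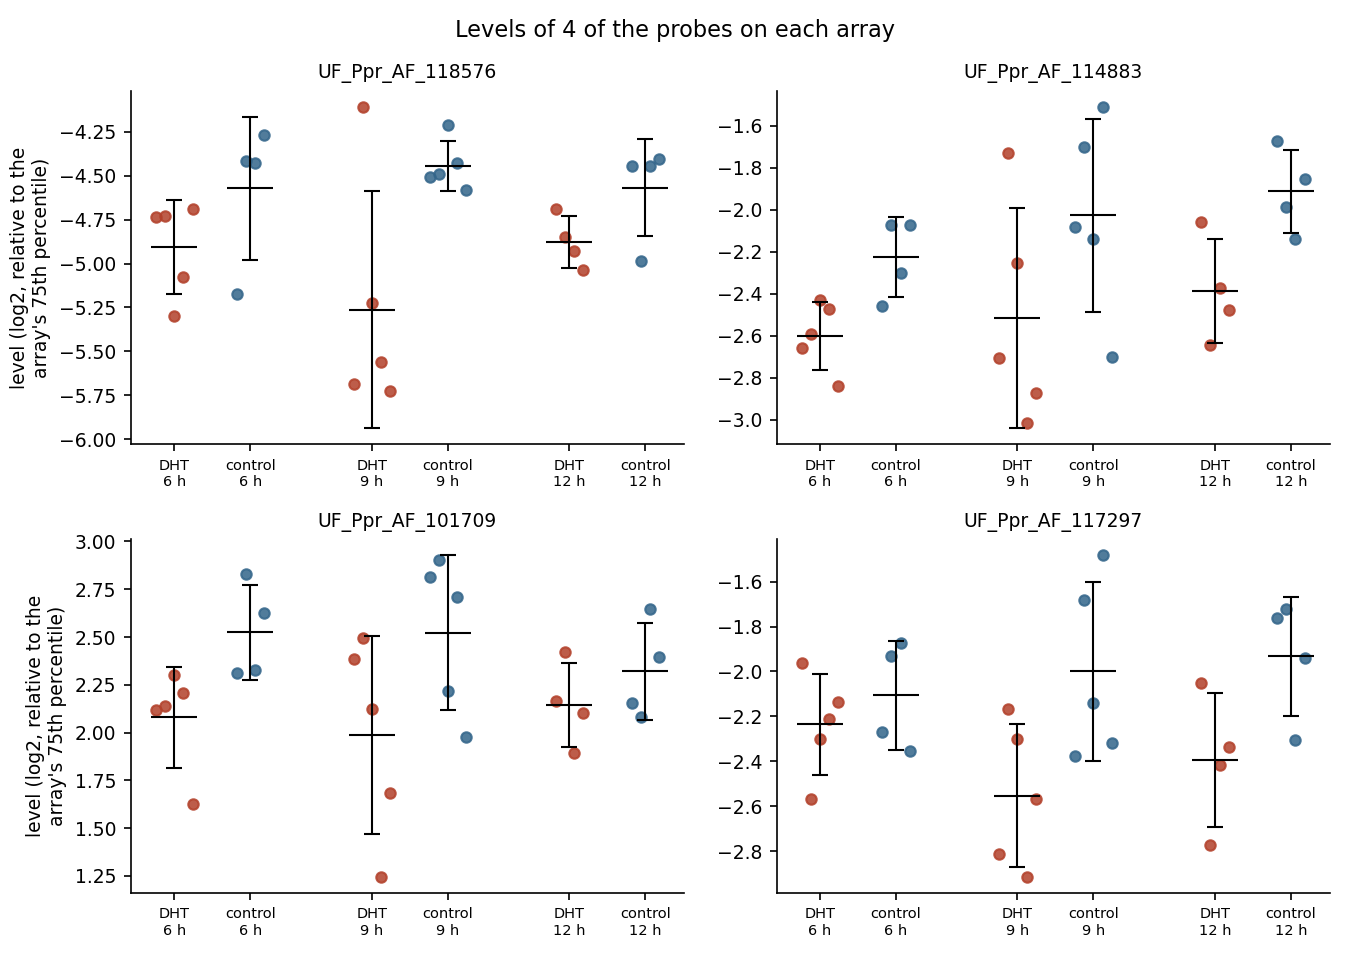
Levels of UF_Ppr_AF_118576, UF_Ppr_AF_114883, UF_Ppr_AF_101709 and UF_Ppr_AF_117297 on each array (log2 relative to the array's 75th percentile, vertical axis), for DHT and control arrays at 6, 9 and 12 h. Points are arrays, bars are group means ± SD. UF_Ppr_AF_101709 has no overlap at 6 h, and DHT 9 h replicate 2 of UF_Ppr_AF_118576 lies above all 9 h control arrays.

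Taking 6 h and 12 h together, 81 of the 100 probes were lower with DHT at both times, 11 at 6 h only and 8 at 12 h only, and 0 were higher at both. Of all tested probes, 53.6% were lower at 6 h and 52.9% at 12 h. Of the 444 other eligible probes with a mean level below -2, 73.4% and 67.3% were lower. The share lower at both times was not counted and cannot be read from these, so the 81 has no matching share. Each of the 100 probes had a smaller difference in size at 6 h than at 9 h, and 97 at 12 h. That order follows in part from the choice, since the probes were picked for the size of the 9 h value. A difference below -0.3 was found for 18 probes at 6 h and for 41 at 12 h. More of the other eligible probes, too, lay below -0.3 at 12 h than at 6 h. In the bin from -0.35 to -0.3 they made up 1.80% at 6 h and 3.05% at 12 h, and in that from -0.4 to -0.35 0.85% and 2.15%. Each bin is only a part of the range below -0.3, so these shares are not on the scale of the 18 and 41. The rise in the count below -0.3 from 6 h to 12 h is therefore not particular to the 100 probes. On the other side, the bin from 0.3 to 0.35 held 0.35% of the other eligible probes at 6 h and 1.65% at 12 h. Their differences thus spread more widely in both directions at 12 h.

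The mean of the 6 h and 12 h differences was below 0 for 96 of the 100 probes, with a median of -0.22. It was below 0 for 53.2% of all tested probes and 60.2% of the other eligible probes. Among the 444 other eligible probes with a mean level below -2, it was below 0 for 74.8%, with a median of -0.11. limma called 0 of the 100 at an adjusted p under 0.05, against 0% of all tested, and the smallest adjusted p was 0.999. The limma fit used a spread shared by all 6 groups, the 9 h arrays included. With only the arrays compared in the fit, more probes had an unadjusted limma p under 0.05 in either direction. They were 4 of the 100 at 6 h, 5 at 12 h and 17 for the mean. The share of all tested probes in those fits was not counted, so these counts are not a result about the 100 probes. At an adjusted p under 0.05, limma called 0 of the 13714 tested probes in each of those fits. In the main fit, an unadjusted p under 0.05 in the lower direction was found for 2 of the 100 probes, against 1.52% of all tested probes, and in the higher direction for 0, against 0.78%. UF_Ppr_AF_114883 had a mean difference of -0.43 (SE 0.17, limma unadjusted p = 0.0193). UF_Ppr_AF_102047 had -0.42 (SE 0.20, limma unadjusted p = 0.0443).

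At 12 h, UF_Ppr_AF_114883 stood at -2.06, -2.64, -2.37 and -2.48 with DHT, against -1.67, -1.99, -2.14 and -1.85 in controls. Only DHT replicate 1 reached the control range there. UF_Ppr_AF_102047 had -2.35, -2.66, -2.62, -2.53 and -2.62 with DHT at 6 h, against -2.46, -2.18, -1.91 and -2.11 in controls. Its DHT replicates 2, 3, 4 and 5 were below every control array at 6 h. UF_Ppr_AF_107449, UF_Ppr_AF_107492 and UF_Ppr_AF_109899 followed, with mean differences of -0.44 (SE 0.22), -0.40 (SE 0.20) and -0.36 (SE 0.18). For each of the 3 the unadjusted p was above 0.05. Intervals of the mean difference lay within 2-fold for 98 of the 100 probes, and for 79.2% of all tested probes, which had no SD limit.

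The probes with the largest positive mean differences were UF_Ppr_AF_100915 at 0.11 (SE 0.28), UF_Ppr_AF_105400 at 0.07 (SE 0.22) and UF_Ppr_AF_104393 at 0.03 (SE 0.18). UF_Ppr_AF_100915 was among the 10 lowest at 9 h, with -0.69. At 12 h it had -2.55, -3.03, -2.61 and -2.95 with DHT, against -3.00, -3.07, -3.21 and -2.91 in controls, so the DHT arrays lay partly above the control range. UF_Ppr_AF_112838, with a 9 h difference of -0.71, differed by 0.03 (SE 0.37) at 6 h. That value rested on DHT replicate 2, at -4.49, against a range of the other 4 DHT arrays from -5.94 to -5.54. Without this array the 6 h difference was -0.22.

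The 12 h difference minus the 6 h difference had a median of -0.03, and was below 0 for 57 of the 100 probes, against 50.6% of all tested probes. limma called 0 of the 100 probes and 0% of all tested, and an unadjusted p under 0.05 was found for 0 of the 100, against 0.386% of all tested in the lower and 0.219% in the higher direction. Between the DHT arrays alone, 12 h minus 6 h had a median of 0.05, with 41 probes lower, against 42.3% of all tested probes, and 59 higher, beside a median of 0.09 over all tested probes. limma called 0 of the 100 probes in this comparison, against 10.8% of all tested probes, in which slide and time cannot be told apart, and 0.459% of the other eligible probes, which passed the same limits on the control means. At an unadjusted p under 0.05, 2 were higher, against 17.3% of all tested and 2.3% of the other eligible probes, and 0 lower, against 5.46% and 4.19%. The 2 were UF_Ppr_AF_104393 and UF_Ppr_AF_101870, the second named after its values were seen. The direction of the median turned with the scaling. Scaling to the median of each array moved the median over all tested probes by more than 0.1, to -0.20, and gave the 100 probes -0.24, and quantile normalization gave them -0.20.

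Differences within slides varied more than those between group means. On slide 2, which held 4 DHT arrays and 1 control array of 6 h, the median difference of the 100 probes was -0.33 and 87 were lower. Of all eligible probes, 56.3% were lower there. At 9 h it was -0.77 on slide 1, 0.47 on slide 2, -1.13 on slide 3 and -0.17 on slide 4. On slide 2 only 7 of the 100 probes were lower with DHT, against 99, 99 and 79 on the other 3 slides. Of all eligible probes, 43.7% were lower on slide 2, and 48.0%, 53.8% and 44.8% on slides 1, 3 and 4. At 12 h the medians were -0.39 on slide 5, with 92 probes lower, and -0.33 on slide 7, with 90 lower. Of all eligible probes, 56.0% were lower on slide 5 and 60.6% on slide 7. These values use the same arrays as the group means and are no separate evidence.

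Some DHT and control arrays resembled each other closely across other probes. Over 500 variable probes outside the 100, 9 pairs of a DHT and a control array of the same time were each other's closest match. Their r ran from 0.58 to 0.93 across probes, and they were set together as inferred pairs. Any closest match within a group was not kept as a pair. DHT 9 h replicate 4 and control 9 h replicate 2 were in no pair. Each 9 h pair lay on a single slide. So did DHT 6 h replicate 3 with control 6 h replicate 2, and DHT 12 h replicate 1 with control 12 h replicate 1. Likeness in these pairs cannot be told apart from a shared slide. Within the pairs, the median difference of the 100 probes was -0.04, -0.46 and -0.04 at 6 h. At 9 h it was -0.46, 0.47, -1.02 and -0.17, and at 12 h -0.18 and -0.21. The 9 h values of 0.47 and -0.17 are those of slides 2 and 4 given above, which held 1 DHT and 1 control array each. The 9 h pairs hold arrays that chose the probes, so their signs are part of the choice. Of the 5 pairs at 6 h and 12 h, each was below 0, and in 2 of them, both at 6 h, the median was -0.04 with 57 of the 100 probes lower. In the pair of DHT replicate 4 and control replicate 1, 41.7% of all eligible probes were lower. In that of DHT replicate 1 and control replicate 3, 53.8% were lower, close to the 57 of 100. The sizes spread as widely at 9 h as the array means did.

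**Figure D4:**
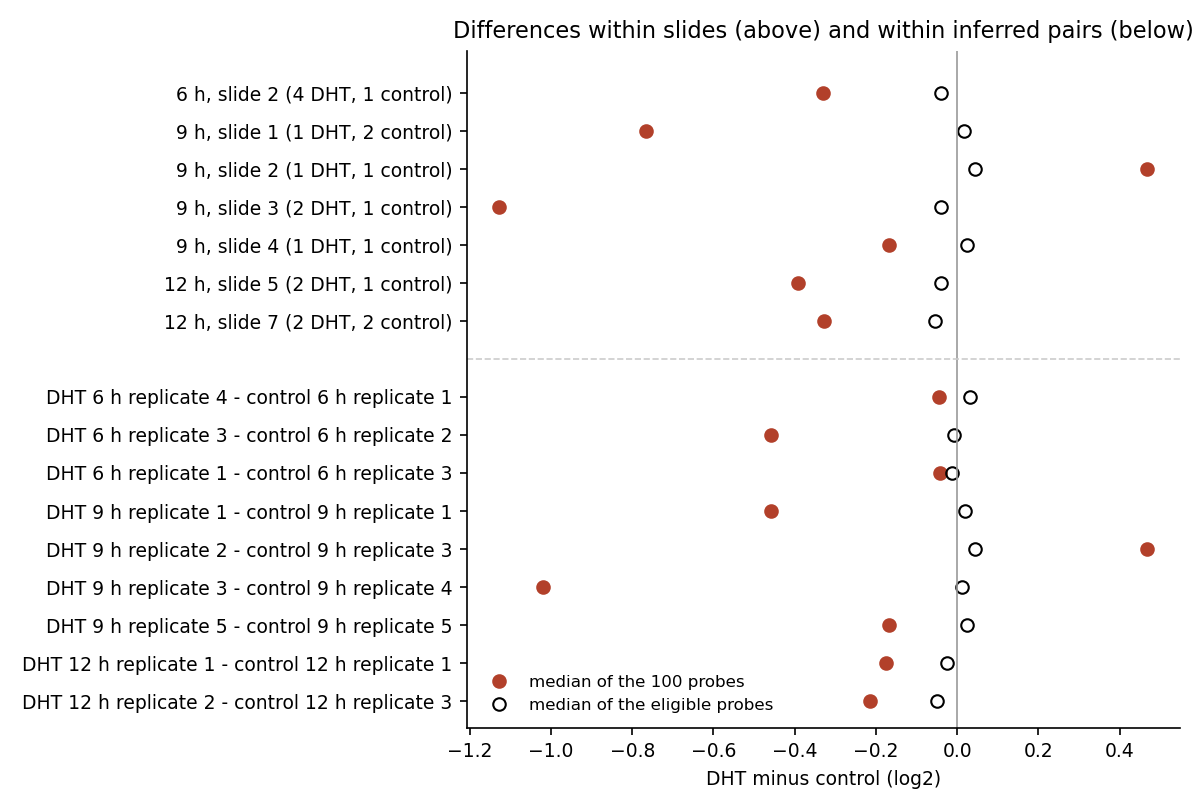
Median DHT minus control difference (log2, horizontal axis) of the 100 probes (filled points) and of all eligible probes (open points), within the slides that held both agents and within the inferred pairs. The 9 h medians of the 100 probes run from -1.13 on slide 3 to 0.47 on slide 2, while the eligible medians stay near 0.

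The 100 probes moved together between arrays of the same group. After each group's mean was taken away, 98.3% of the 4950 pairs of the 100 probes correlated positively over the 27 arrays, with a median r of 0.53. Over all pairs of eligible probes the median r was 0.02 and 52.6% were positive. These arrays include those that chose the probes, and the points share their arrays, so the correlations are a description. A probe's r with the mean of the other 99 ranged from 0.20 for UF_Ppr_AF_118751 to 0.93 for UF_Ppr_AF_118942, with 62 probes above 0.7 and 8 under 0.5. Outside the 100, 637 of 9915 probes well above background on all arrays had an r above 0.7 with the mean of the 100, and 79 had one below -0.7.

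The probes varied more than the other eligible ones and were dimmer. Their mean within-group SD had a median of 0.41, beside 0.27 for all eligible probes. This follows in part from the choice, since variable probes reach an extreme 9 h difference more easily, and the rule also set a limit on the SD. Their mean level ran from -5.94 to 2.26 with a median of -2.77, beside 0.45 for all eligible probes. Only 5 of the 100 had a mean level above 0, against 56.3% of the eligible and 26.6% of the tested probes. Of the 100 eligible probes with the highest 9 h difference, 34 had a mean level above 0, so these too were dimmer than the eligible probes. UF_Ppr_AF_107623, the second brightest at 0.71, differed by -0.23 (SE 0.19) at 6 h and -0.07 (SE 0.20) at 12 h. The 2 dimmest, UF_Ppr_AF_114624 and UF_Ppr_AF_101210, differed by -0.17 (SE 0.27) and -0.37 (SE 0.33) at 6 h, and by -0.43 (SE 0.29) and -0.12 (SE 0.35) at 12 h.

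The array gives each probe a name of the form FJU with a number and a C number, or a gi sequence number, and some names carry the letters rc. What these marks stand for is not given in the sources used here. A gi number was carried by 28 of the 100 probes, against 9.85% of the eligible and 19.7% of the tested probes. An FJU name with rc and a C number of 2 or more was carried by 30 of the 100, against 10.4% of the eligible and 11.9% of the tested probes. By contrast, rc with a C number of 1 was found for 2 of the 100, against 8.66% of the eligible probes. The 72 FJU names of the 100 probes came from 72 different FJU numbers, so no FJU number was counted more than once. Among the 100 eligible probes with the highest 9 h difference, 9 carried a gi number and 9 had rc with a C number of 2 or more.

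Outside the 100, probes with rc and a C number of 2 or more also had mostly lower means with DHT, while gi names at 12 h stood at the share of all tested probes. The 1187 others with rc and a C number of 2 or more, well above background on all arrays and tested, had median differences of -0.09 at 6 h, -0.11 at 9 h and -0.09 at 12 h, with 70.9%, 66.3% and 62.9% lower. The 1414 others with a gi number had -0.06, -0.09 and -0.02, with 63.4%, 63.9% and 53.0% lower, the last beside 52.9% of all tested probes. For the 4540 with a C number of 1 and no rc the medians were -0.02 and 0.01 at 6 and 9 h and nearer still to 0 at 12 h. The mean of the others with rc and a C number of 2 or more was also taken on each array, probes with an outlier flag included. Its lowest array was that of the 100 probes in 5 of the 6 groups, and its highest array in 4 of the 6. All eligible probes, which include the 100, shared much of this. Their mean had the same lowest array as the 100 for control 6 h, DHT 9 h, control 9 h and control 12 h. It had the same highest array for DHT 9 h, control 9 h and DHT 12 h. Whether the name classes have a part in the differences of the 100 probes was not tested.

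**Figure D5:**
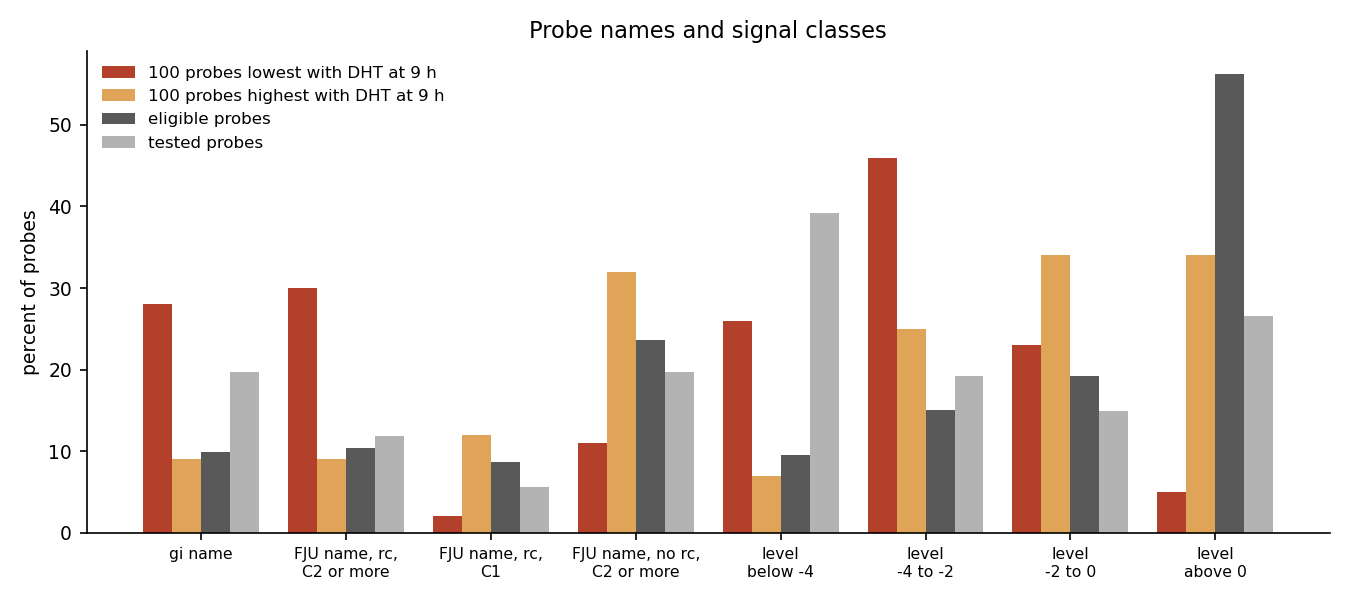
Share of probes (percent, vertical axis) with each kind of name and in each class of mean level, for the 100 probes lowest with DHT at 9 h, the 100 highest, all eligible probes and all tested probes. Names with rc and a C number of 2 or more make up 30% of the lowest 100, 9% of the highest 100 and 10.4% of the eligible probes.

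Which probes were chosen depended on the 9 h arrays. With each 9 h array left out of the choice in turn, between 37 and 81 of the 100 probes were kept, the fewest without control 9 h replicate 5 and 42 without control 9 h replicate 2. UF_Ppr_AF_118576 was the 1 probe kept in all 10 choices. It differed by -0.33 (SE 0.25) at 6 h and by -0.31 (SE 0.27) at 12 h, each with a limma adjusted p of 1.00. The probes chosen in these ways had medians from -0.24 to -0.17 at 6 h and from -0.28 to -0.21 at 12 h, with 88 to 94 and 85 to 91 of 100 lower. Of all tested probes, 53.6% were lower at 6 h and 52.9% at 12 h. Without the limits on the control means, 22 of the 100 probes were kept, and the medians of the probes then chosen were -0.21 at 6 h and -0.30 at 12 h, with 91 of 100 lower at each time. The share lower among the 8426 probes open to that choice was not counted.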

How the data were processed

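Per the labels' protocols, RNA was extracted with TRIzol, samples of low integrity were purified on columns, and the dye was Cy3. The authors' spot intensity values are processed signals, background-subtracted and detrended by Agilent Feature Extraction 10.7.1.1, per the file headers. Other columns of the deposited scanner output are flags for spots well above background or non-uniform. A deposited series table has log2 values by the authors, normalized in a way not given in the sources used here. Each column was closest to its own array, with r of at least 0.9979 and medians from 8.21 to 8.30.

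Levels were the log2 processed intensity relative to the array's 75th percentile over 15208 non-control probes. Left out of tests were 169 probes with an outlier flag and 1333 that were well above background on fewer than 4 arrays, in part the same, leaving 13714. A group-means model of the 6 groups over 27 arrays was fitted with limma 3.58.1 (R 4.3.3, with version 1.17.8 of data.table), with p-values adjusted by Benjamini-Hochberg over the 13714 probes, and was tested on simulated data. Python 3.11.15 with numpy 2.4.6, pandas 2.3.3 and matplotlib 3.10.9 did the rest. Inferred pairs were a DHT and a control array of the same time that were mutual best partners at r over 0.5.

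The probes and lists were chosen with earlier results of these data known. Probes were named as the 10 lowest at 9 h, the 5 lower ones with the smallest p in the mean of 6 h and 12 h, the 3 smallest p at each of these times, the 3 most positive mean differences, the 3 probes on either side of the limit, and the 2 brightest and 2 dimmest. The planned gene lists and cell type markers were not run, since no probe could be matched to a gene. The alternatives were other scalings, background corrections, filters and blocks, the probes chosen otherwise, and leaving out each array. The median spot intensity stood in for the mean in the normexp correction (offset 50).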

Additional observations from a re-analysis of the deposited data

Results flagged for a closer look

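Single arrays stood apart from the rest of their group in 9 of 168 groups examined, where chance gives 8.4, about 1 in 20. The groups share arrays and hold probes that vary together and were named for their values, so they are not 168 separate tests. For the mean of the 100 probes, control 6 h replicate 1 stood apart at -0.0995, against a nearest array of 0.1962. DHT 12 h replicate 1 did so at 0.3513, against -0.1235. Control 12 h replicate 2 was low for UF_Ppr_AF_112549, at -3.0731, and for UF_Ppr_AF_118576, at -4.9829. DHT 6 h replicate 2 was high for UF_Ppr_AF_112838, at -4.4942. DHT 6 h replicate 5 was low for UF_Ppr_AF_101709, at 1.6281. Control 6 h replicate 3 was high for UF_Ppr_AF_104393, at -5.0673. DHT 6 h replicate 4 was low for UF_Ppr_AF_101401, a probe just outside the 100, at -3.8812. Control 9 h replicate 2 was high for UF_Ppr_AF_101210, at -4.9461.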

How the results depend on the processing

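limma called 0 of the 100 probes in each comparison under each alternative run. The smallest adjusted p of any of them was 0.977 at 6 h, 0.622 at 12 h, 0.772 for the mean of both and 0.0695 for DHT 12 h minus DHT 6 h. Over all tested probes, the inferred pairs as a block gave 3 calls at 12 h. Unpaired arrays had blocks of their own in that fit. Its 12 h effect thus rested on DHT replicate 1 with control replicate 1, and DHT replicate 2 with control replicate 3. The r of the second pair was only 0.58. Leaving out each array moved the median of the 100 probes between -0.26 and -0.14 at 6 h (79 to 97 lower), -0.36 and -0.16 at 12 h (69 to 96 lower) and -0.27 and -0.18 for their mean. With slide as a fixed block the median was -0.36 at 6 h (85 lower), -0.35 at 12 h (98 lower) and -0.35 for their mean (94 lower), and after normexp it was -0.13 at 12 h (82 lower). Slides with 6 h arrays also held 9 h arrays. Slide terms in the blocked fits at 6 h, and so in the mean, thus drew in part on the arrays that chose the probes. The 12 h minus 6 h difference ran from -0.16 to 0.048, above 0 without control replicate 1 or DHT replicate 1 of 6 h, or control replicate 1, DHT replicate 3 or DHT replicate 4 of 12 h, and was 0.00029 after normexp. DHT 12 h minus DHT 6 h ran from -0.089 to 0.12 with 35 to 65 probes lower, below 0 without DHT 6 h replicate 2 or 3 or DHT 12 h replicate 1. It was -0.15 (71 lower) after normexp, -0.20 (78) after quantile normalization, -0.24 (86) by array medians and -0.19 (76) in the deposited values, and could not be fitted with slide as a fixed block or with inferred pairs, neither of which joins 6 h to 12 h arrays. The cause was not tested.

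Of 888 recomputed differences of the named probes, 49 changed sign and 0 changed side of the threshold. UF_Ppr_AF_112838 at 6 h was -0.0015 after quantile normalization, -0.014 in the deposited values and -0.22 with inferred pairs. UF_Ppr_AF_110593 at 6 h was -0.012 after normexp, -0.0043 in the deposited values, -0.10 with the fixed and -0.022 with the random slide block and -0.019 with inferred pairs. UF_Ppr_AF_100915 at 6 h was 0.11 with the fixed and 0.0040 with the random slide block, and the fixed block gave 0.084 for UF_Ppr_AF_104393 at 6 h and 0.080 for UF_Ppr_AF_108749 at 6 h. Normexp gave 0.0019 for UF_Ppr_AF_105400 at 12 h and 0.013 for UF_Ppr_AF_110593 at 12 h. At 12 h the fixed block gave -0.11 for UF_Ppr_AF_104393, and inferred pairs gave -0.057 for UF_Ppr_AF_104393, 0.10 for UF_Ppr_AF_110593 and 0.16 for UF_Ppr_AF_107623.

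Leaving out an array at 6 h gave -0.20 to 0.079 for UF_Ppr_AF_110903, -0.22 to 0.14 for UF_Ppr_AF_112838, -0.20 to 0.17 for UF_Ppr_AF_100915, -0.24 to 0.0035 for UF_Ppr_AF_101321, -0.18 to 0.069 for UF_Ppr_AF_104393, -0.32 to 0.11 for UF_Ppr_AF_108749 and -0.18 to 0.19 for UF_Ppr_AF_110593. At 12 h it gave -0.29 to 0.090 for UF_Ppr_AF_101321, -0.16 to 0.018 for UF_Ppr_AF_102677, -0.31 to 0.17 for UF_Ppr_AF_105400, -0.085 to 0.23 for UF_Ppr_AF_104393, -0.35 to 0.27 for UF_Ppr_AF_108749, -0.18 to 0.075 for UF_Ppr_AF_110593, -0.17 to 0.050 for UF_Ppr_AF_107623 and -0.35 to 0.20 for UF_Ppr_AF_101210. No paired analysis was possible by replicate number because the labels pair no samples. The pairs inferred from the data, given above as a block, come from the arrays and not from the design.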

Other observations

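On the array, 35 of the 100 probes lay in the third of 4 equal bands of rows and 18 in the second, against 25.5% and 23.9% of the eligible probes, and 59 lay in the second of 2 equal bands of columns, against 50.2%. Probe IDs with the letters AM made up 4 of the 100, against 1.62% of the eligible and 3.63% of the tested probes. The rule applied to quantile-normalized, deposited or normexp values kept 57, 58 and 43 of the 100 probes.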
